A study of Mus musculus with 4 samples.

Results

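Kallikreins and related serine proteases were taken as all non-control probes whose gene name began with Klk, Tmprss or Prss followed by a number, or was Hpn or St14. The rule used names and no measured value. It found 66 of 41174 probes, which stand for 54 of 27974 gene names. By name they comprised 12 genes of the Klk1 and Klk1b group, 11 genes from Klk4 to Klk15, 15 transmembrane proteases (Tmprss, Hpn, St14 and the enteropeptidase Prss7) and 16 Prss genes.

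Prostates came from male mice, 8 weeks old, in a cross of line and gavage. The lines were C57BL/6, the normal mice, and TRAMP, which carry the SV40 early region under a rat probasin promoter that acts in prostate epithelium and which develop prostate tumours. Mice of each line received olive oil or 600 mg/kg of γ-TmT, a tocopherol mixture rich in the gamma form of vitamin E, and tissue was taken 12 h later. All 4 groups shared the AIN-76A diet and the fast before dosing. The labels name 3 mice for a group but 1 array, and do not say whether RNA of these mice was pooled. They also leave the strain background of the TRAMP mice unstated, so the transgene and any other difference between the lines cannot be told apart. With 1 array per group no pair of arrays could be tested.

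Trypsin-fold serine proteases cut proteins after particular residues, and most are made as inactive precursors that another protease switches on. Tissue kallikreins are secreted by glands. In humans several of them, including the prostate-specific antigen KLK3, are made by prostate epithelium under androgen control. Mice have no KLK3 but carry a large set of Klk1b genes, copies of Klk1, which are best known from the submandibular salivary gland. The transmembrane proteases sit at the cell surface, where matriptase (St14), hepsin (Hpn) and Tmprss2 process growth factor precursors, channels and each other.

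The Klk1 and Klk1b genes lie side by side on chromosome 7 and are alike in sequence, so the probes that read them are shown first. Sequences are those of the array probes with their positions on mouse build mm9, plus strand, 5′ to 3′. Capitals mark the positions at which the aligned probes of a set differ. The first set holds the probes of Klk1b24 and Klk1b27, which differed most between the lines, and of Klk1b11, whose probe is the most alike to that of Klk1b27.
Klk1b24: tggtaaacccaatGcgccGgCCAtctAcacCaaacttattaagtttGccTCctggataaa
Klk1b27: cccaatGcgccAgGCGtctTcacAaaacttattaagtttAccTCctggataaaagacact
Klk1b11: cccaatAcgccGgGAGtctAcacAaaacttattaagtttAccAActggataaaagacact
These lie at chr7:51447692-51447751, chr7:51311959-51312018 and chr7:51255119-51255178. The Klk1b11 and Klk1b27 probes matched at 54 of 60 aligned bases (90.0%), and those of Klk1b24 and Klk1b27 at 47 of 53 (88.7%). Klk1b11 and Klk1b24 matched at 45 of 53 (84.9%). Binding of one transcript to the probe of another was not tested, so values of these 3 genes may share signal. Probes were compared only with each other, not with the transcripts of the other genes. Whether the other Klk1 and Klk1b readings share signal is therefore unknown as well.

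A second pair of like probes belongs to genes that showed no such difference, Klk1 (chr7:51484170-51484325) and Klk1b4 (chr7:51466302-51466457), which matched at 48 of 55 bases (87.3%).
Klk1: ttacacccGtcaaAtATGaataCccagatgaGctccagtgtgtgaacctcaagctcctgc
Klk1b4: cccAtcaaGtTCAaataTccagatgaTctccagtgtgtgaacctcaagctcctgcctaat
The next most alike pair, Klk1 and Klk1b26, matched at 72.4%.

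Levels below are log2 signals relative to the 75th percentile of the same array, so 0 is a probe at that percentile. Levels of different probes are not compared with each other, because probes differ in how well they bind. Of the 54 genes, 38 were well above background on at least 1 array, 26 of them on all 4, and 34 on at least 2. By group, a signal on at least 1 array was found for 11 of 12 Klk1 and Klk1b genes, 7 of 11 genes from Klk4 to Klk15, 9 of 15 transmembrane proteases and 11 of 16 Prss genes. The 16 genes not above background on any array were Klk1b16, Klk5, Klk6, Klk8, Klk12, Tmprss6, Tmprss12, Tmprss11b, Tmprss11d, Tmprss11e, Tmprss11f, Prss21, Prss28, Prss29, Prss34 and Prss35. Among these are Klk5 of the skin, Klk8 (neuropsin) of the brain, Tmprss6 of the liver, Prss21 (testisin) of the testis and Prss28 and Prss29 of the uterus. The arrays differed in brightness. Their 75th percentiles ran from 71.3 on the TRAMP TmT array to 161 on the C57BL/6 oil array, and 63.9% to 74.1% of 43379 spots were well above background. Where a probe was above background on only 1 array of a pair, the difference is given as a bound (at least N-fold).

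**Figure D1:**
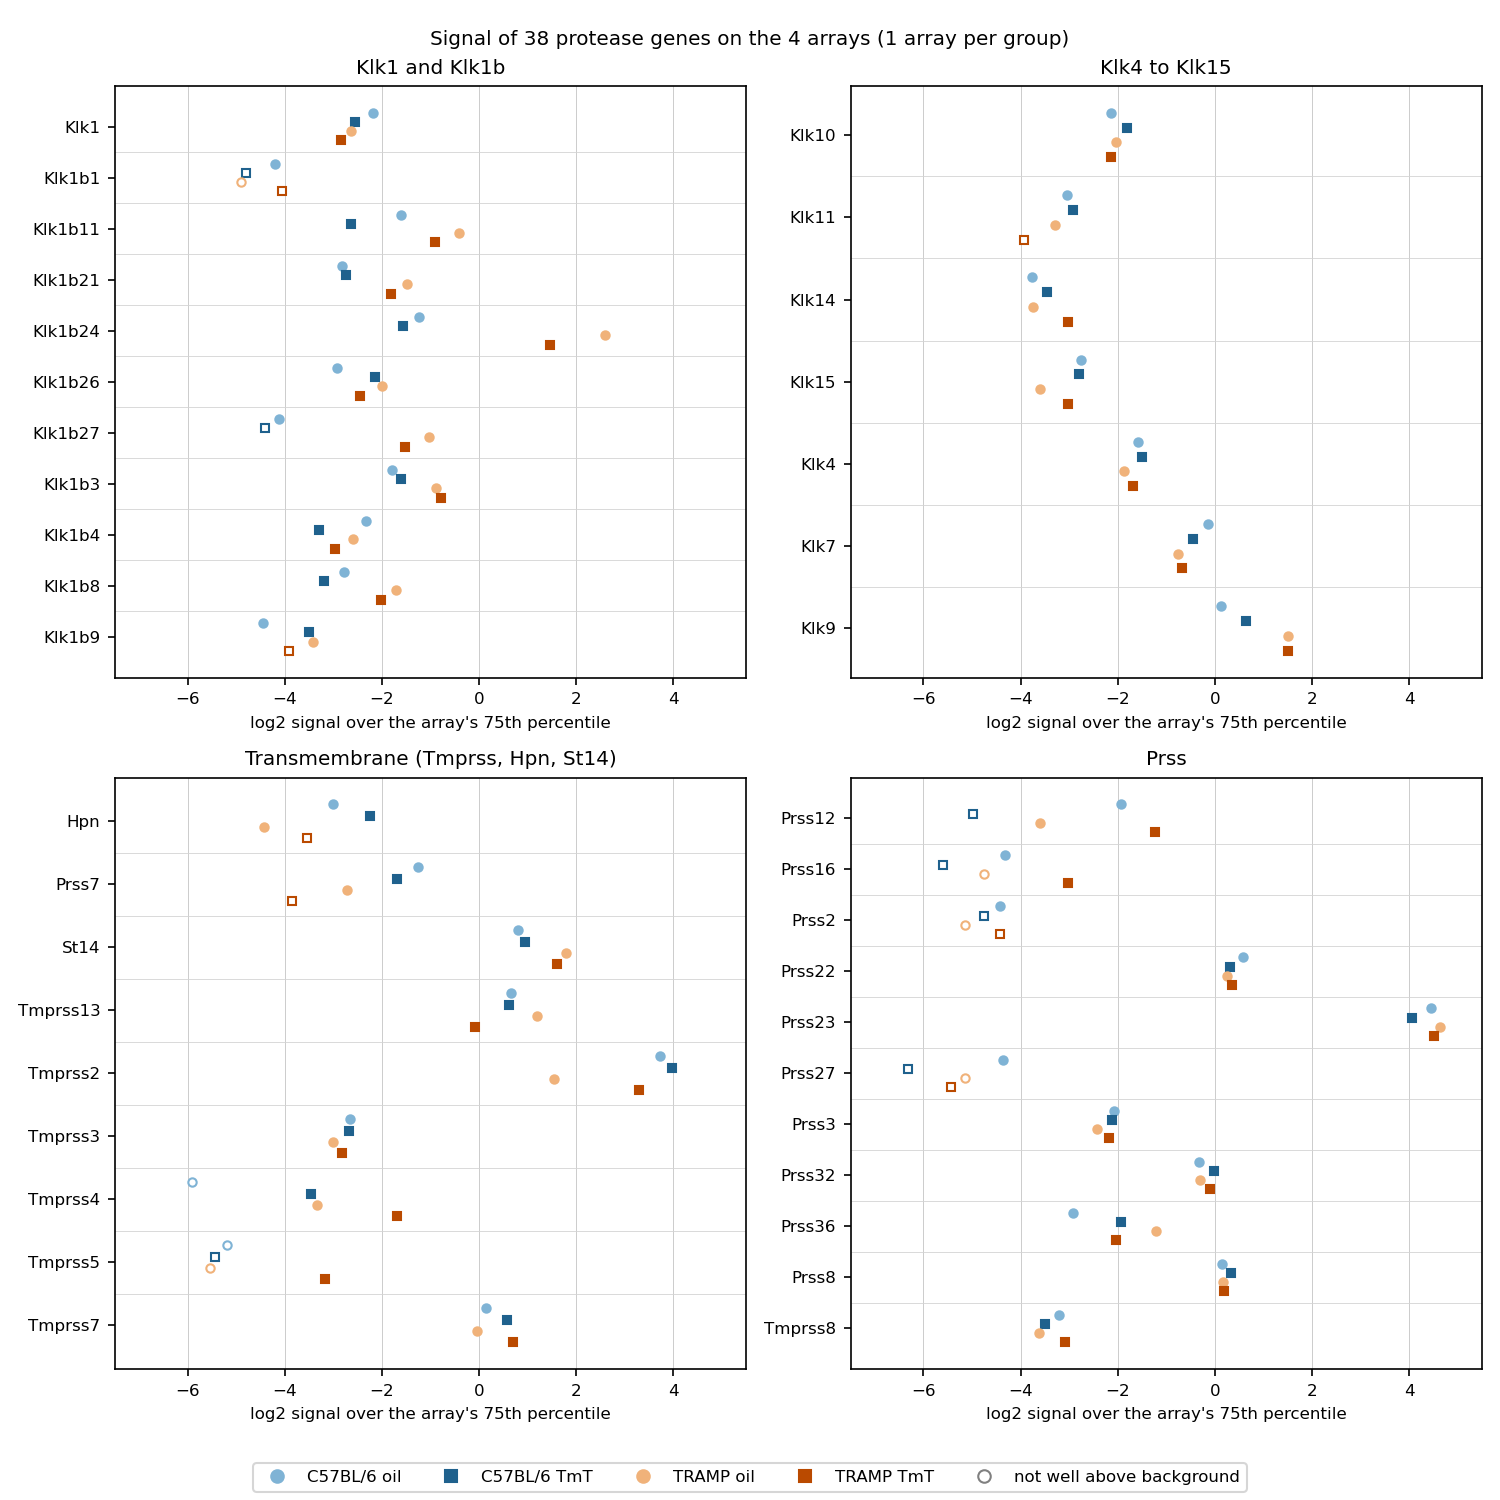
Signal of the 38 genes above background on at least 1 array, in log2 units relative to each array's 75th percentile (x axis), 1 point per array and gene (y axis), with 1 array per group and no error bars. Filled symbols are well above background and open symbols are not. Klk1b24 stands at -1.24 and -1.56 on the C57BL/6 arrays and at 2.60 and 1.46 on the TRAMP arrays.

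The first comparison set TRAMP against C57BL/6 mice after oil. Of the 8 members that stood at least 2-fold higher in TRAMP, 6 were Klk1b genes, led by Klk1b24 at 14.3-fold and Klk1b27 at 8.42-fold. Tmprss2, Hpn and Prss7 were the transmembrane proteases that stood lower, by 4.56-fold, 2.72-fold and 2.79-fold, Hpn and Prss7 each on only 1 of 2 probes. Of 32 members measured on both arrays, 12 passed the 2-fold mark, 8 upward in TRAMP and 4 downward, with 1 more upward as a bound. Over all 18921 genes measured on both arrays, 15.6% differed by at least 2-fold (7.74% higher and 7.84% lower). The median difference was 0.01 over the 32 members and -0.07 over all genes. By group, 6 of 10 measured Klk1 and Klk1b genes passed the mark upward and 0 downward, and their median difference was 1.05. The count was 1 upward and 0 downward of 7 for Klk4 to Klk15 (median -0.25), 1 and 1 of 8 for Prss (median -0.16) and 0 and 3 of 7 for the transmembrane proteases (median -0.37). These are descriptions of 1 array against 1 array, and ± below is the scanner software's error of the spots, which leaves out the difference between mice.

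Klk1b24, a kallikrein reported in mouse Leydig cells, read -1.24 in C57BL/6 after oil, -1.56 in C57BL/6 after TmT, 2.60 in TRAMP after oil and 1.46 in TRAMP after TmT. Both TRAMP arrays stood above both C57BL/6 arrays. The TRAMP minus C57BL/6 difference was 3.84 ± 0.21 after oil and 3.02 ± 0.21 (8.12-fold) after TmT. Klk1b27, likewise reported in Leydig cells, read -4.12 in C57BL/6 and -1.04 in TRAMP after oil, a difference of 3.07 ± 0.28. After TmT it read -1.53 in TRAMP and was not well above background in C57BL/6 (-4.42), which makes TRAMP at least 7.41-fold higher. For Klk1b27 too the lines did not overlap.

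Klk1b11 gave -1.60 and -2.64 in C57BL/6 after oil and TmT, and -0.42 and -0.92 in TRAMP. Its lines did not overlap, and the TRAMP excess was 1.18 ± 0.21 after oil and 1.72 ± 0.23 after TmT. Klk1b21 gave -2.82 and -2.75 in C57BL/6 against -1.49 and -1.81 in TRAMP, an excess of 1.33 ± 0.23 after oil and of 0.94 ± 0.25 after TmT. Klk1b8 gave -2.78 and -3.19 against -1.72 and -2.03, an excess of 1.07 ± 0.22 and of 1.16 ± 0.27. Both genes were higher on each TRAMP array than on either C57BL/6 array.

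Klk1b3, the gamma subunit of nerve growth factor, which processes its precursor, stayed just under 2-fold on its brighter probe. It read -1.80 and -1.62 in C57BL/6 and -0.88 and -0.79 in TRAMP, and the excess was 0.92 ± 0.21 after oil and 0.83 ± 0.21 after TmT. A second Klk1b3 probe ran the same way, at -2.52 and -2.01 in C57BL/6 and -1.04 and -1.73 in TRAMP. Its excess passed the 2-fold mark after oil, at 1.47 ± 0.22, and was 0.28 ± 0.23 after TmT. With Klk1b3 included, 6 of the 10 fitted Klk1 and Klk1b genes (Klk1b24, Klk1b27, Klk1b11, Klk1b21, Klk1b8 and Klk1b3) had both TRAMP arrays above both C57BL/6 arrays.

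The remaining members of the group did not separate upwards. Klk1b9, which binds epidermal growth factor, read -4.46 in C57BL/6 and -3.42 in TRAMP after oil, an excess of 1.04 ± 0.34. After TmT it read -3.50 in C57BL/6 and was not well above background in TRAMP (-3.91), so the direction seen after oil was not seen after TmT. Klk1b26, which also binds epidermal growth factor, turned in the same way, with -2.92 and -2.14 in C57BL/6 and -2.0 and -2.45 in TRAMP. Its difference was 0.92 ± 0.24 after oil and -0.31 ± 0.26 after TmT. Klk1b4, the alpha subunit of nerve growth factor, read -2.34 and -3.30 in C57BL/6 and -2.60 and -2.97 in TRAMP, with overlapping lines. Klk1 itself, the tissue kallikrein that releases kinins, was the one fitted gene of the group with both TRAMP arrays below both C57BL/6 arrays. It read -2.19 and -2.55 in C57BL/6 and -2.64 and -2.84 in TRAMP, differences of -0.45 ± 0.22 and -0.29 ± 0.29. Klk1b1 was above background only in C57BL/6 after oil.

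**Figure D2:**
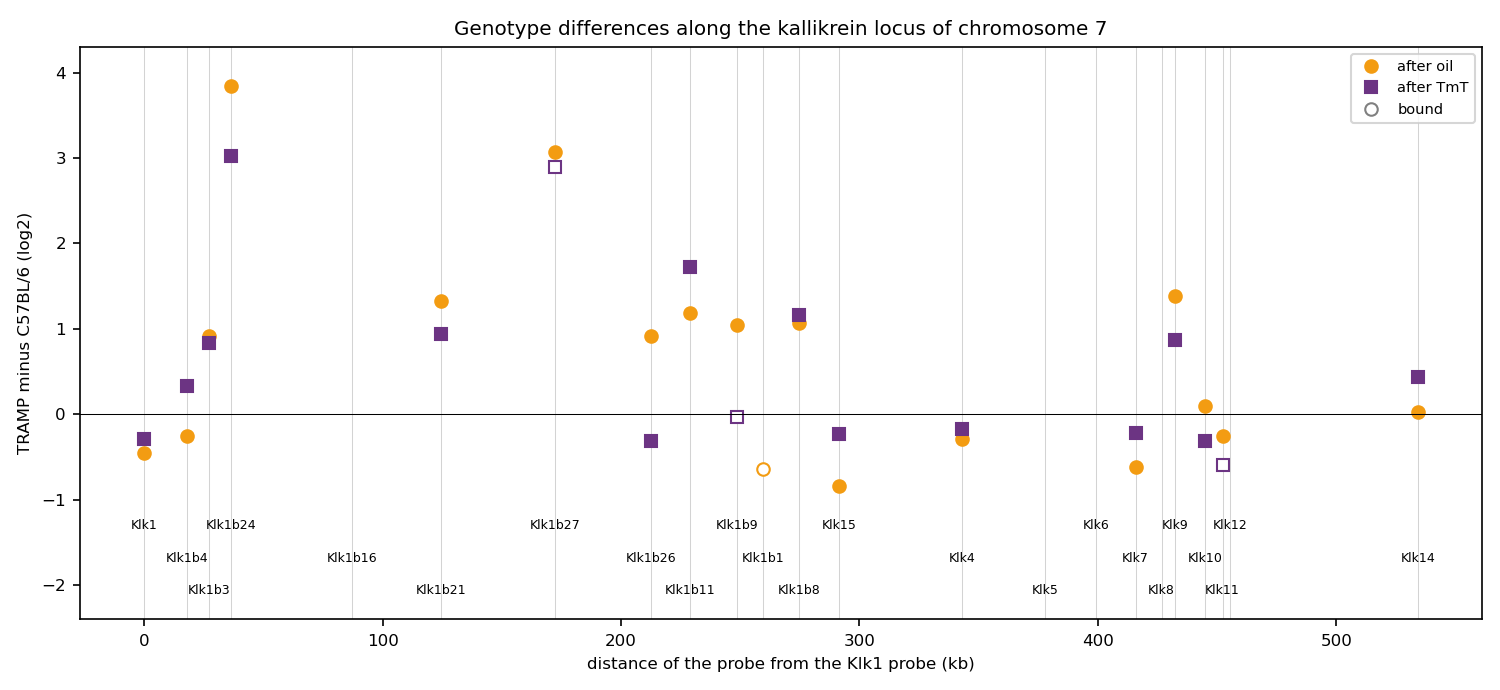
TRAMP minus C57BL/6 difference in log2 units (y axis) against the distance of each probe from the Klk1 probe in kb (x axis) for the Klk genes of chromosome 7, after oil (circles) and after TmT (squares), 1 array per group. Open symbols are bounds, and names without a symbol had no measurable difference. The highest points are Klk1b24, at 36.5 kb, and Klk1b27, at 172.2 kb.

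The Klk genes share their place in the genome, which the rule did not use. The Klk1 and Klk1b probes ran from Klk1 to Klk1b8 at a distance of 274.6 kb, followed by Klk15 at 291.3 kb, Klk4 at 343.2 kb, Klk9 at 432.3 kb and Klk14 at 534.4 kb. Klk1b24 and Klk1b27, the genes with the greatest differences, were not next to each other. Klk1b24 (36.5 kb) stood between Klk1b3 (27.1 kb) and Klk1b16 (87.3 kb, not above background on any array). Klk1b27 (172.2 kb) stood between Klk1b21 (124.4 kb) and Klk1b26 (212.7 kb). Klk1b4, at 17.9 kb, showed no 2-fold difference in either genotype comparison although Klk1b24 was close by. After oil every measured gene from Klk1b3 to Klk1b8 was higher in TRAMP, by 0.92 to 3.84. Within that stretch Klk1b1 was lower as a bound (-0.64). Klk1, Klk1b4 and Klk15, on either side of it, stood at -0.45, -0.26 and -0.84. After TmT Klk1b26 (-0.31) and, as a bound, Klk1b9 (-0.03) were not higher.

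Promoters are shown for the Klk1b genes with the greatest differences, Klk1b24 and Klk1b27, and for Klk1b4, a gene of the same cluster without a 2-fold difference. The sequences run from 250 bases before to 50 bases after the annotated start and come from RefSeq on build GRCm38.p6, plus strand, at chr7:44187986-44188285, chr7:44052040-44052339 and chr7:44207183-44207482. Capitals mark TTTAAA, a variant of the TATA box, and AGAACA, the half-site core of the androgen and glucocorticoid receptor element, each searched on both strands with no overlap between them.
Klk1b24: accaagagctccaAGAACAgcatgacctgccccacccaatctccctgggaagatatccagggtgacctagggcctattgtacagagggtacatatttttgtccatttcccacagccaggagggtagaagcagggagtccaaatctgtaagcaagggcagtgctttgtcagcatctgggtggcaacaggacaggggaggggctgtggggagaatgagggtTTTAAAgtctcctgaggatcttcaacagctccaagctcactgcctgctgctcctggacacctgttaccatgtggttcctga
Klk1b27: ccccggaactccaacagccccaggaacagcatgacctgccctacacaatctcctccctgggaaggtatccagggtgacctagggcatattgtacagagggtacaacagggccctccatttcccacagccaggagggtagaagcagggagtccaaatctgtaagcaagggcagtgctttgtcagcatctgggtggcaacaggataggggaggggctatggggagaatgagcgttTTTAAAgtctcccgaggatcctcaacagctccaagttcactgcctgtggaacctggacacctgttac
Klk1b4: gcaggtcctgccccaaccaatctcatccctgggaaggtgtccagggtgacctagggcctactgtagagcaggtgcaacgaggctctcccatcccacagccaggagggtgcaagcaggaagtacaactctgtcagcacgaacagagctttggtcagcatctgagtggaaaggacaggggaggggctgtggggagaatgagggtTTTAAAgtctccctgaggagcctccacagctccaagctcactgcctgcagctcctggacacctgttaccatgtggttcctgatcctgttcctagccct
TTTAAA was present in the window of 11 of the 12 Klk1 and Klk1b genes, all but Klk1, and in 13.2% of 32851 promoters in the table. It lay 31 bases before the annotated start in Klk1b24, 17 in Klk1b27 and 48 in Klk1b4. TATAAA was present in 0 of the 12 and in 13.6% of all promoters. AGAACA was present in Klk1b24 and Klk1b3 among the 12, and in 19.0% of all promoters. The windows of the 12 genes were 79.4% to 99.2% identical over 66 pairs (median 86.5%), with Klk1b24 and Klk1b27 at 91.6% and Klk1b24 and Klk1b4 at 88.4%. The most alike pair was Klk1b21 and Klk1b24, and Klk1b21 and Klk1b27 stood at 94.5%. Klk1b24 and Klk1b11, also both higher in TRAMP, stood at 87.0%. The genes with and without a 2-fold difference thus shared most of these letters. Whether promoter likeness went with the size of the difference was not tested.

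Among the Klk4 to Klk15 genes, Klk9, whose substrates are little known, was the one at least 2-fold different. It read 0.13 and 0.64 in C57BL/6 after oil and TmT and 1.51 and 1.5 in TRAMP, with both TRAMP arrays above. The excess was 1.38 ± 0.20 (2.61-fold) after oil and 0.87 ± 0.20 after TmT. The other Klk9 probe was not above background on any array, and averaging both left a difference of 0.80 after oil, under 2-fold.

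Klk4, which degrades enamel matrix and in humans is also a prostate gene, read -1.58 and -1.51 in C57BL/6 and -1.87 and -1.68 in TRAMP. Klk7, a protease of skin shedding, read -0.14 and -0.46 against -0.76 and -0.68 on the brightest of its 3 probes. Another Klk7 probe was above background only in C57BL/6 after TmT (-4.04), and the last on no array. Klk15, which in humans can activate the prostate-specific antigen precursor, read -2.76 and -2.79 against -3.60 and -3.02. For all 3 the TRAMP arrays were below the C57BL/6 arrays by less than 2-fold, -0.84 ± 0.26 for Klk15 after oil being the largest such difference. Klk10 read -2.14, -1.81, -2.03 and -2.13 in the order C57BL/6 oil, C57BL/6 TmT, TRAMP oil and TRAMP TmT. Klk14, a skin kallikrein, read -3.77, -3.46, -3.74 and -3.03 in that order. For both genes the lines overlapped. Klk11 was above background on every array but TRAMP after TmT.

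Among the transmembrane proteases, Tmprss2, an androgen-induced gene of the human prostate, read 3.72 and 3.96 in C57BL/6 after oil and TmT, against 1.53 and 3.30 in TRAMP. Both TRAMP arrays were below both C57BL/6 arrays. The difference was -2.19 ± 0.20 after oil and -0.66 ± 0.20 (1.58-fold lower) after TmT. The other Tmprss2 probe gave 0.24 and 0.10 in C57BL/6 and -1.56 and -1.47 in TRAMP, so it too was lower in TRAMP but did not show the higher TRAMP TmT value.

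Hpn (hepsin), which in humans is raised in prostate cancer, read -3.0 and -2.25 in C57BL/6 and -4.44 in TRAMP after oil, and was not well above background in TRAMP after TmT (-3.54). The difference was -1.44 ± 0.35 after oil, and TRAMP was at least 2.42-fold lower after TmT. The other Hpn probe ran the opposite way, at -4.62 in C57BL/6 after oil against -4.14 and -3.02 in TRAMP, and was not well above background in C57BL/6 after TmT (-5.13). Averaging both probes left a difference of -0.48 after oil, so the direction for Hpn depends on the probe. St14 (matriptase), an activator of the hepatocyte growth factor precursor and of prostasin, read 0.79 and 0.94 in C57BL/6 and 1.79 and 1.61 in TRAMP. It was higher on both TRAMP arrays, by 1.00 ± 0.20 after oil, just under the 2-fold threshold, and by 0.66 ± 0.20 after TmT. Its other probe read -0.43 and -0.96 against -0.15 and -0.42 and was also higher on both TRAMP arrays.

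Tmprss4, an epithelial protease able to activate the sodium channel, was not well above background in C57BL/6 after oil (-5.92). It read -3.47 in C57BL/6 after TmT, -3.34 in TRAMP after oil and -1.70 in TRAMP after TmT. TRAMP was at least 2.82-fold higher after oil and higher by 1.77 ± 0.28 (3.41-fold) after TmT. Prss7, now named Tmprss15 (enteropeptidase, the activator of trypsinogen), read -1.25 and -1.69 in C57BL/6 and -2.73 in TRAMP after oil, and was not well above background in TRAMP after TmT (-3.86). The difference was -1.48 ± 0.21 after oil, and TRAMP was at least 3.56-fold lower after TmT. A second Prss7 probe was not above background on any array, and averaging both left a difference of -0.85 after oil, under 2-fold. Tmprss13, a protease of skin and other epithelia, read 0.65, 0.61, 1.18 and -0.09 in the order C57BL/6 oil, C57BL/6 TmT, TRAMP oil and TRAMP TmT. Tmprss7 (matriptase-3) read 0.14, 0.58, -0.05 and 0.69 in that order, and Tmprss3, known from inherited deafness, -2.66, -2.69, -3.02 and -2.82. Tmprss3 stood lower on both TRAMP arrays by less than 2-fold, while the lines overlapped for Tmprss13 and Tmprss7. Tmprss5 was above background only in TRAMP after TmT (-3.18), at least 2.62-fold higher than in C57BL/6 after TmT.

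**Figure D3:**
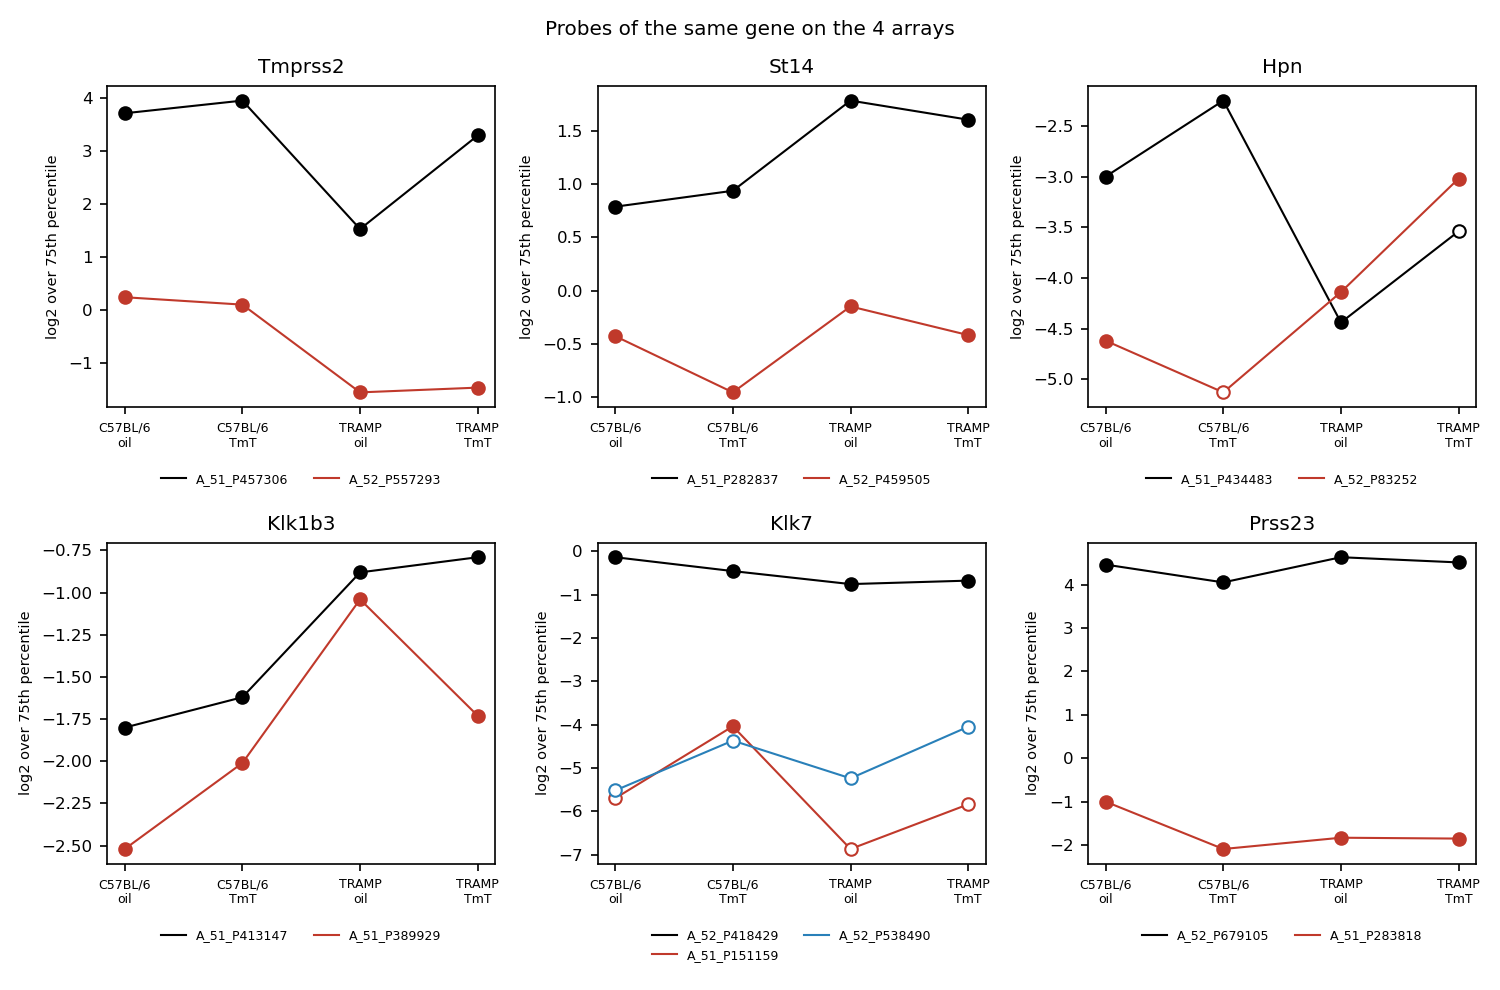
Log2 signal relative to each array's 75th percentile (y axis) on the 4 arrays (x axis, 1 array per group) for each probe of 6 genes read by several probes. Open points are not well above background, and lines join the values of a probe for legibility only. The probes of Tmprss2 differ at TRAMP TmT (3.30 and -1.47), those of Hpn run opposite ways, and those of St14 are both higher in TRAMP.

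Of the Prss genes, Prss36 (polyserase-2) was the one higher in TRAMP after oil. It read -2.93 and -1.93 in C57BL/6 after oil and TmT and -1.22 and -2.04 in TRAMP, a difference of 1.71 ± 0.23 (3.28-fold) after oil and -0.11 ± 0.24 after TmT. The excess after oil was thus not seen after TmT. Prss12 (neurotrypsin, which cuts agrin at synapses) read -1.93 in C57BL/6 and -3.59 in TRAMP after oil, a difference of -1.66 ± 0.27. After TmT it was not well above background in C57BL/6 (-4.97) and read -1.24 in TRAMP, a TRAMP excess of at least 3.33 log2 units. Its genotype direction therefore differed between oil and TmT. Prss16, a thymus protease, was above background in C57BL/6 after oil (-4.31) and TRAMP after TmT (-3.02), and TRAMP was at least 2.93-fold higher after TmT. A second Prss16 probe was not above background on any array.

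The other measured Prss genes stayed within 2-fold in all 4 comparisons on the probe used. Prss8 (prostasin, which activates the epithelial sodium channel) read 0.15, 0.33, 0.16 and 0.18 on the 4 arrays in the same order. Prss22 read 0.57, 0.31, 0.25 and 0.36, and Prss32 -0.32, -0.01, -0.31 and -0.10. Prss23 read 4.46, 4.05, 4.63 and 4.51, with a second probe at -1.0, -2.09, -1.83 and -1.85. That second probe passed the 2-fold mark downward with TmT in C57BL/6, at -1.09 ± 0.21. Tmprss8, now named Prss30, and the trypsin Prss3 were among those within 2-fold. The trypsin Prss2 and Prss27 were above background only in C57BL/6 after oil.

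The same genotype question asked after TmT gave a smaller count. Of 27 members measured on both arrays, 4 passed the 2-fold mark upward in TRAMP (Klk1b24, Klk1b11, Klk1b8 and Tmprss4) and 0 downward. A further 4 were higher as bounds (Klk1b27, Prss12, Prss16 and Tmprss5) and 2 lower (Hpn and Prss7). Over all 17251 genes measured, 14.5% differed by at least 2-fold (8.45% higher and 6.09% lower). The median was 0.05 over the members and 0.01 over all genes. Within the Klk1 and Klk1b group 6 of 8 measured differences were above 0, with a median of 0.88. This pair and the oil pair share no array.

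**Figure D4:**
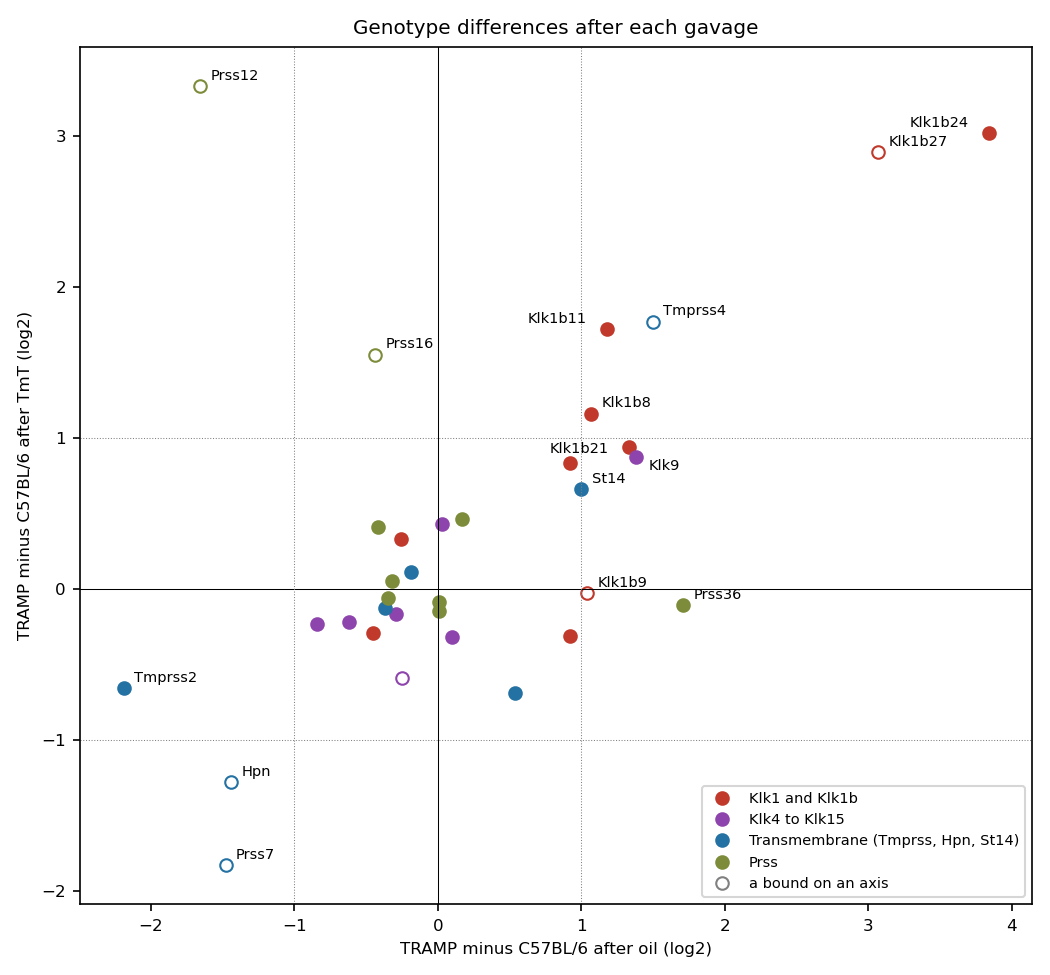
TRAMP minus C57BL/6 difference after oil (x axis) and after TmT (y axis), both in log2 units, 1 point per gene, 1 array per group and no error bars. Dotted lines mark 2-fold, and open points have a bound on at least 1 axis. Klk1b24 (3.84, 3.02) and Klk1b27 (3.07, at least 2.89) lie at the upper right, Tmprss2 (-2.19, -0.66), Hpn and Prss7 at the lower left, and Prss12 at the upper left.

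Genotype and TmT were then fitted together with limma over 19925 genes above background on at least 2 arrays, 34 of them members. With 4 arrays this additive model leaves 1 residual degree of freedom, so a gene's own error comes from the difference between its 2 genotype contrasts, moderated over all genes. In the main setting it called 0 members for genotype at an adjusted p of 0.05, against 27 of all genes (0.136%, with 0.1% higher and 0.0351% lower). The lowest member values came from Klk1b24, whose fitted difference was 3.43 ± 0.37 (SE, limma, Benjamini-Hochberg adjusted p = 0.063), and Klk1b27 at 2.98 ± 0.32 (limma adjusted p = 0.0631). Both missed the threshold in the main setting. Of the other settings, local background subtraction was not planned, and its fit gave every gene the same variance and called 6.6% of all genes. Klk1b24 passed with the arrays centred on the median (limma adjusted p = 0.0449), with genes above background on all 4 arrays (0.00625) and with local background subtraction (5.17e-19). Klk1b27 passed with median centring (0.0458) and local background subtraction (0.00303). Neither passed with quantile normalization, averaged probes, no filter or normexp, where the adjusted p of Klk1b27 ran from 0.0554 to 0.824. The next were Tmprss4 at 2.17 ± 0.36 (limma adjusted p = 0.0933) and Prss7 at -1.82 ± 0.35 (limma adjusted p = 0.12). Klk1b11 (1.45 ± 0.34), Hpn (-1.37 ± 0.32) and Tmprss2 (-1.42 ± 0.46) had limma adjusted p of 0.166, 0.167 and 0.257. At an unadjusted p under 0.05 the fit held 12 members, 9 higher in TRAMP and 3 lower, against 15.1% of all genes.

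Counted by order alone, 10 of 34 members had both TRAMP arrays above both C57BL/6 arrays and 10 had both below. Over all genes these shares were 21.3% and 25.6%. Of the 10 above, 6 were Klk1 and Klk1b genes. Of the 10 below, 4 were genes from Klk4 to Klk15 and 4 transmembrane proteases.

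The remaining comparisons asked what TmT did in each line. In C57BL/6, Prss36 was higher after TmT, with a difference of 1.00 ± 0.24, and Klk1b11 lower, with -1.04 ± 0.23. These were the 2 of 30 measured members at least 2-fold different, against 5.74% of all 18665 genes measured (3.12% higher and 2.63% lower). As bounds, Tmprss4 was at least 2.59-fold higher and Prss12 at least 6.21-fold lower after TmT. Klk1b9 (0.96 ± 0.36) and Klk1b4 (-0.96 ± 0.26) stayed just under 2-fold. The C57BL/6 oil array serves this comparison and the oil genotype comparison alike, so their values are not independent.

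In TRAMP, TmT went with higher Prss12 (2.35 ± 0.27, 5.09-fold), Tmprss2 (1.77 ± 0.20, 3.42-fold) and Tmprss4 (1.64 ± 0.26, 3.12-fold), and with lower Tmprss13 (-1.27 ± 0.21) and Klk1b24 (-1.14 ± 0.20). These were 5 of 29 measured members, against 13.5% of all 17465 genes measured (8.66% higher and 4.86% lower). Prss16, on only 1 of 2 probes, and Tmprss5 were higher as bounds, at least 3.33-fold and at least 3.21-fold. The other Tmprss2 probe read -1.56 after oil and -1.47 after TmT, so the Tmprss2 difference rests on the brighter probe. The TRAMP oil array also serves the oil genotype comparison, where Tmprss2 (-2.19), Prss12 (-1.66) and Klk1b24 (3.84) had the opposite sign. Values of these comparisons are therefore not independent. The TRAMP TmT array likewise serves the TmT genotype comparison. Of 9 measured Klk1 and Klk1b genes, 8 were below 0, with a median of -0.37, where the median of all genes was 0.10. In C57BL/6 5 of 9 were below 0, with a median of -0.32. In TRAMP only Klk1b24 of the 9 reached 2-fold, and the Klk1 difference (-0.2 ± 0.28) was within the spot error. The share of all genes below 0 is not given here.

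**Figure D5:**
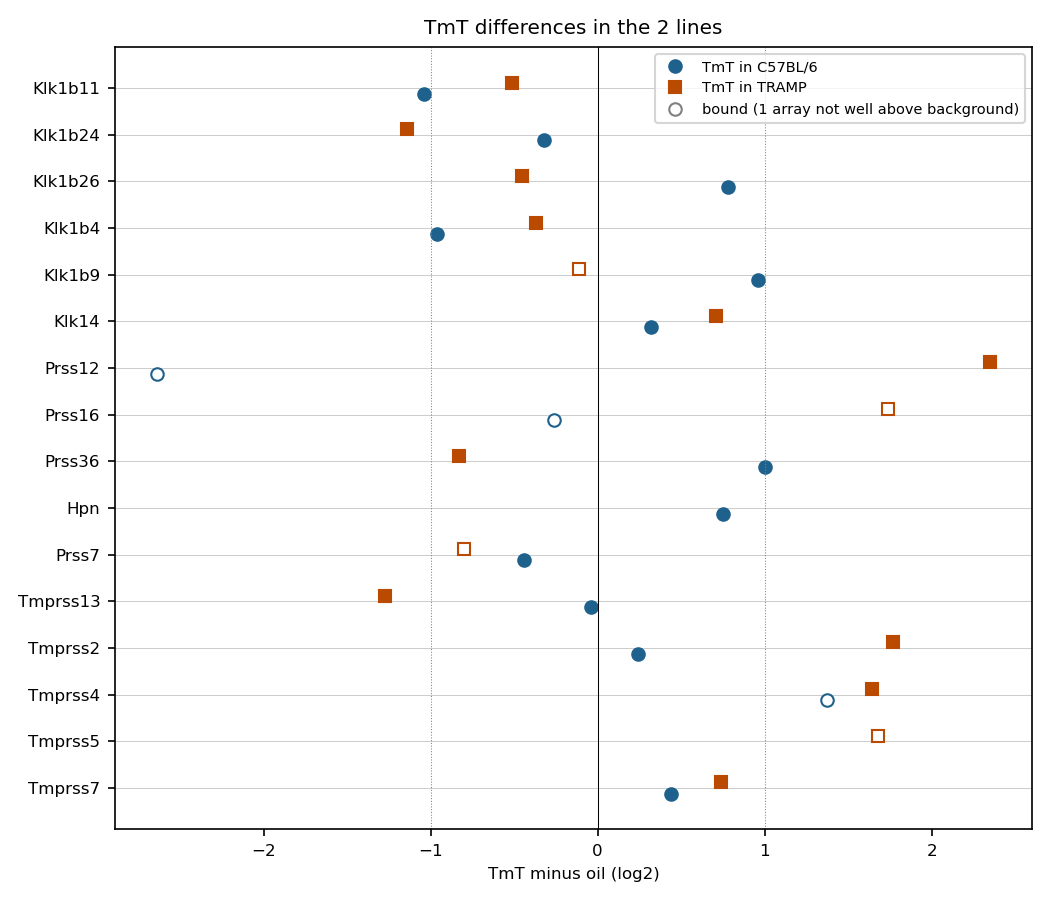
TmT minus oil difference in log2 units (x axis) in C57BL/6 (circles) and TRAMP (squares) for the member genes (y axis) with a difference of at least 0.7 in either line, 1 array per group and no error bars. Open symbols are bounds and dotted lines mark 2-fold. Prss12 lies at -2.64 (bound) in C57BL/6 and 2.35 in TRAMP, and Tmprss4 lies above 1 in both lines.

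No member was called for TmT by the additive limma fit, which called 0 of all 19925 genes (0.0%). The lowest adjusted p was 0.773, for Tmprss4 at 2.05 ± 0.36. At an unadjusted p under 0.05 the fit held 2 members, Tmprss4 and Hpn (0.82 ± 0.32), both higher after TmT, against 6.26% of all genes. Each of these genes was not well above background on 1 array, Tmprss4 in C57BL/6 after oil (-5.92) and Hpn in TRAMP after TmT (-3.54). The fit used these values as they were. The other Hpn probe read -4.62 in C57BL/6 after oil and was not well above background there after TmT (-5.13). In TRAMP that probe read -4.14 after oil and -3.02 after TmT. By order, 4 members had both TmT arrays above both oil arrays and 2 had both below, against 17.1% and 13.2% of all genes.

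Genes that act with these proteases were read from lists. Of 20 inhibitors and regulators found on the array, 17 were measured after oil, 0 at least 2-fold higher in TRAMP and 2 lower (median -0.24). The 2 were Serpinb1a, which inhibits neutrophil proteases, at -1.15 ± 0.20, and Serpini1 (neuroserpin) at -1.17 ± 0.21. After TmT they were lower again, at -1.76 ± 0.20 and -1.84 ± 0.22, while Slpi, the secretory leukocyte protease inhibitor, and Serpina3n were higher at 2.57 ± 0.23 and 1.36 ± 0.23 (16 measured, median 0.01). Spint1, the inhibitor of matriptase and hepsin, stayed within 2-fold at 0.80 ± 0.20 after oil and -0.22 ± 0.20 after TmT.

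Of 28 substrates and receptors on the array, 23 were measured after oil, with 1 at least 2-fold higher and 3 lower in TRAMP (median -0.15). The higher one was Scnn1a, the alpha subunit of the epithelial sodium channel that prostasin activates, at 3.19 ± 0.23 after oil and 1.89 ± 0.22 after TmT. The lower ones were Egf, whose protein is a partner of Klk1b products in the salivary gland, at -1.67 ± 0.20, and the binding proteins Igfbp5 at -1.48 ± 0.20 and Igfbp3 at -1.16 ± 0.21. After TmT Egf remained lower at -2.06 ± 0.20, and F2rl1 (the protease-activated receptor PAR2) was higher at 1.07 ± 0.20. F2rl2, another receptor of that family, was lower after TmT at -2.41 ± 0.22, and 2 of 22 measured genes in all were higher and 3 lower (median 0.14). Svs3a, a seminal vesicle protein, was the other gene lower, at -1.22 ± 0.20. Hgfac, an activator of hepatocyte growth factor, was higher as a bound after TmT (2.04).

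Of 37 other trypsin-fold proteases on the array, 28 were measured after oil, with 1 higher and 5 lower by at least 2-fold in TRAMP (median -0.48). The higher one was Cfd, a product of fat cells, at 2.67 ± 0.20. The lower ones were the leukocyte protease Ctsg (-2.39 ± 0.21) and the mast cell proteases Mcpt4 (-1.74 ± 0.21) and Cma1 (-1.63 ± 0.22), the clotting factor F10 (-1.45 ± 0.33) and Plau, the urokinase (-1.09 ± 0.20). After TmT 21 were measured, 2 higher (Cfd at 1.40 ± 0.20 and Htra3 at 1.36 ± 0.20) and 2 lower (Proc, the anticoagulant protein C, at -1.45 ± 0.21 and Ctsg at -1.51 ± 0.22). Their median was -0.22.

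Androgen-regulated prostate genes formed the last list, with 18 of 20 measured after oil, 1 at least 2-fold higher in TRAMP and 6 lower (median -0.36). After TmT 16 were measured, with 1 higher and 6 lower (median -0.38). The higher one was Fkbp5, a chaperone of steroid receptors, at 1.84 ± 0.20 after oil and 1.26 ± 0.21 after TmT. Among the lower ones were Tgm4, the prostate transglutaminase (-4.11 ± 0.20 after oil and -1.57 ± 0.20 after TmT), and the secretory product Pbsn (-2.95 ± 0.20 and -2.04 ± 0.20). The genotype limma fit called 0 genes of any of the 4 lists.

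Markers of other cells the dissection could hold moved as well. All 7 luminal markers were above background on all 4 arrays, and their summed level, in multiples of the 75th percentile, was 398 and 431 in C57BL/6 after oil and TmT and 211 and 284 in TRAMP. The lower sum in TRAMP came mostly from Pbsn, which is also on the androgen-regulated list. Pbsn read 7.06 and 7.09 in C57BL/6 after oil and TmT and 4.11 and 5.06 in TRAMP. Of the 7 markers, 2 were at least 2-fold lower in TRAMP after oil and 3 after TmT, with 0 higher. In whole tissue, fewer cells of a type and less RNA per cell cannot be told apart. Of 8 adipocyte markers, 7 were above background after oil in either line, and their summed level was 44.1 in C57BL/6 and 250 in TRAMP after oil but 23.7 and 29.2 after TmT. All 7 measured ones were at least 2-fold higher in TRAMP after oil, with Lep not above background on any array. In the TmT pair of lines the adipocyte median was -0.22. With TmT in TRAMP it was -3.37, and Klk1b24 differed by -1.14 there. Submandibular markers, the other tissue rich in Klk1b products, summed to 320 and 248 in C57BL/6 and 92.1 and 120 in TRAMP. This sum came mostly from Muc10 (8.28, 7.89, 6.48 and 6.87), and 6, 7, 3 and 5 of its 7 genes were above background in the order C57BL/6 oil, C57BL/6 TmT, TRAMP oil and TRAMP TmT. Testis and sperm markers summed to 5.66 and 5.57 in C57BL/6 and 3.66 and 4.66 in TRAMP, with 6 of 8 above background on at least 1 array and Odf1 and Akap4 on none. Seminal vesicle markers, 7 of 7 above background everywhere, summed to 1860 and 2040 in C57BL/6 and 1840 and 2190 in TRAMP. That sum came mostly from Svs5, Svs4 and Svs6, and single markers moved both ways. With TmT in TRAMP, Svs2 (1.09 ± 0.20) and Svs7 (1.05 ± 0.20) were at least 2-fold higher. Sva (-3.62 ± 0.20) and Svs3a (-2.15 ± 0.20) were lower there by at least 2-fold. Epididymis and vas deferens markers summed to 36.5 and 79.6 in C57BL/6 and 3.82 and 53.6 in TRAMP, with 4 of 7 above background on at least 1 array and Lcn5, Adam7 and Crisp4 on none. This sum came mostly from Akr1b7 (4.78 and 6.05 in C57BL/6 after oil and TmT, 1.03 and 5.23 in TRAMP). The sum was thus lowest in TRAMP after oil, the array on which Tmprss2 was also lowest. Other marker lists were lower in TRAMP after oil as well. Of the measured genes, 5 of 6 of skeletal muscle (median -1.12), 3 of 5 of mast cells (median -1.63), 2 of 6 of endothelium (median -0.96), 2 of 5 of basal epithelium (median -0.86) and 1 of 6 of fibroblasts (median -0.76) were lower by at least 2-fold, and 0 of these lists' genes were higher by as much. After TmT these medians were -0.57, -0.08, -0.08, 0.03 and 0.45. The part of these markers, of the fat, gland and duct markers and of the prostate lobes taken in the differences of Tmprss2, Prss12 and the other members was not tested.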

How the data were processed

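Each spot's processed signal, a linear intensity in 1 colour (Cy3), was background-subtracted and detrended within its array by Agilent Feature Extraction 10.2.1.3, per the file headers. Multiplicative detrending was applied to 3 arrays and not to TRAMP TmT. The deposited value table held the same intensity for 45018 of 45018 features of each array (tolerance 0.1%), so it is linear and not centred, with medians of 30.2, 21.3, 25.3 and 13.8 for C57BL/6 oil, C57BL/6 TmT, TRAMP oil and TRAMP TmT. The 4 arrays shared 1 slide and 1 scan time.

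Control spots and outlier spots (131 to 348 per array) were left out, and 0 spots were saturated. Deposited signals were divided by the 75th percentile of their array and put on the log2 scale, and a gene was read by its brightest probe over the 4 arrays. RefSeq accessions (GRCm38.p6) matched 50 of the 54 names and updated 2. For a bound, the dim side was set to its own value or to the lowest signal well above background on its array, whichever was higher. It carries no error.

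The additive fit used limma 3.58.1 (R 4.3.3), with Benjamini-Hochberg adjustment over all genes tested and a prior SD of 0.355, and was tested on simulated data. Named in full are members at least 2-fold different in any comparison, measured or as a bound, and Klk, Tmprss, Hpn and St14 genes above background on all 4 arrays. From the lists, genes at least 2-fold different in either genotype comparison may be named. Members and lists were chosen with earlier results of these data known. The number of arrays limits the precision. Alternatives are given in the closing section.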

Additional observations from a re-analysis of the deposited data

Results flagged for a closer look

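Prss12 (neurotrypsin) was marked because its direction turned between groups. The TmT minus oil difference was -2.64 in C57BL/6, as a bound, and 2.35 in TRAMP, and the TRAMP minus C57BL/6 difference was -1.66 after oil and 3.33 after TmT, again as a bound. The C57BL/6 TmT array, on which the probe was not well above background, enters both bounds. The TRAMP oil array enters both measured differences, so these are not independent. The difference between these effects was not tested, since each group had 1 array.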

How the results depend on the processing

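The 12 members at least 2-fold different between lines after oil became 3 with normexp background correction or local subtraction (offset 50 each), 7 with genes above background on all 4 arrays and 5 at 3-fold. After TmT 4 became 1 with normexp, 2 with local subtraction and 11 without the background filter. For TmT in C57BL/6, 2 became 19 with normexp, 7 without the filter, 0 at 3-fold and 0 with local subtraction. For TmT in TRAMP, 5 became 17 with normexp, 2 with local subtraction, 13 without the filter, and 3 each at 3-fold and with all 4 arrays above background. Members called for genotype by limma rose from 0 to 2 with median centring (0.381% of all genes called), 1 with all 4 arrays above background (1.64%) and 4 with local subtraction (6.6%; Klk1b24, Klk1b27, Klk9 and Tmprss2). For TmT they rose from 0 to 24 of 34 with normexp, which called 74.4% of all genes. Over the alternatives the limma adjusted p of Klk1b24 ran from 5.17e-19 to 0.824, and quantile normalization (0.083), averaged probes (0.0738) and no filter (0.0506) left it above 0.05. With normexp 2 differences turned, Klk1b11 for TmT in C57BL/6 to 1.01 and Tmprss2 for TmT in TRAMP to -1.64. Normexp failed on both TmT arrays: its corrected 1st percentile was 633 and 892 there, close to the 75th percentiles of 659 and 895, against 3.03 and 2.80 on the oil arrays. Local subtraction was added after seeing this, and its fit gave every gene the same variance, whatever that gene's own residual. Under local subtraction 22 of 23 single differences moved beyond the spot error, with 0 reversed, and with averaged probes 4 of 23. Quantile normalization and median centring moved 0 of 23 beyond it. Low signal limits Hpn, Klk1b9, Klk1b27, Prss7, Prss12, Prss16, Tmprss4 and Tmprss5, each dim on at least 1 array. No paired analysis was possible because each group had 1 array.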
